A study of Mus musculus with 6 samples.

Results

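The kinesins are the microtubule motors that walk on, slide or shorten microtubules, together with the light chains and the adaptor that bind them to cargo. The members described here were the genes named Kif with a number, the light chain genes Klc1 to Klc4, Kifc1 to Kifc3 and Kifap3. Of the 46 such genes in a RefSeq mouse gene table, 43 had a probe set paired with that gene alone, out of 19938 genes so measured on the arrays. Each gene was read from its brightest such probe set, by the mean over the 6 arrays. Kifc1, Klc2 and Kif28 had none and were not analysed here. The cells came from W4, a mouse embryonic stem cell line, and had been taken through 16 days of neural differentiation. For all 16 days 1 group of 3 cultures received 300 uM valproate (VPA), a drug against epilepsy and an inhibitor of histone deacetylases; the labels describe that dose as sub-toxic. The other group of 3 cultures received the solvent, phosphate-buffered saline (PBS). The comparison asked how a developmental neurotoxicant changed transcripts while neurons formed. All cultures are from 1 cell line, so the groups give the spread between cultures of that line only.

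Kinesins take energy from ATP to move along microtubules. In neurons, motors of families 1, 2 and 3 carry vesicles, mitochondria and proteins down axons and dendrites, and light chains or adaptors choose the cargo. In dividing cells another set builds the spindle, moves chromosomes and completes cytokinesis, and it is made mostly by cells in cycle. Neurons do not divide, but which cells in these cultures made each set was not measured. The genes were divided by these roles. There were 9 transport genes enriched in neurons, 12 other transport genes, 12 mitotic genes, 6 genes of cilia and centrioles and 4 others. The 12 other transport genes are called broadly used here, though Klc3 among them lay near background.

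With VPA the mitotic kinesins were higher and the neuron-enriched transport kinesins lower, by small amounts. These lists were chosen with earlier results of these data known, so the counts are descriptions with no test. Of the 12 mitotic genes 9 rose and 0 fell, where 13.6% of all genes rose. Kif2a, which also serves the spindle and fell, was not on the mitotic list. Of the 9 neuron-enriched transport genes 6 fell and 0 rose, where 15.7% of all genes fell. All VPA arrays lay above all PBS arrays for 9 of 12 mitotic genes (20.2% of all genes), and below them for 7 of 9 neuron-enriched genes (23.8% of all genes). A positive change was measured for 11 of 12 mitotic and 0 of 9 neuron-enriched genes, against 50.3% of all genes. The 12 broadly used transport genes were mixed, with 3 lower, 1 higher and 8 past no threshold. Over all 43 kinesins 10 rose, 11 fell and 22 did not pass, against 29.2% of all genes that passed in either direction. A gene is said to rise or fall where limma's moderated test gave a Benjamini-Hochberg adjusted p under 0.05 over all 19938 genes. Changes are VPA minus PBS on the log2 scale, on which 1 is a doubling, with the moderated standard error (SE).

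The median change was 0.34 for the mitotic list, -0.24 for the neuron-enriched list, -0.04 for the broadly used list and 0.0013 for all genes. Of the 43 kinesins 1, Kifc2, changed by at least 1.5-fold. The values are the deposited, normalized log2 signals, whose array medians lay between 6.99 and 7.03. Each change is therefore relative to the other genes, and fewer cells of a type cannot be told apart from less RNA per cell. The number of arrays limits the precision. VPA replicate 1 stood apart from the other VPA arrays, with a median absolute difference over all genes of 0.125 and 0.132 from them. Other pairs within a group differed by 0.060 to 0.073. Without VPA replicate 1, 10 of 12 mitotic kinesins rose (19.8% of all genes) and 9 of 9 neuron-enriched transport kinesins fell (21.2% of all genes). The mitotic count was 5 without PBS replicate 2 and 5 without PBS replicate 3. Calls dropped over all genes too, from 2702 higher to 1778 and 1972 in these settings. The count of transport kinesins that fell over both transport lists was 9 of 21. It was 5 without PBS replicate 1, 5 without PBS replicate 2 and 12 without VPA replicate 1. Over all genes 3123 fell, and 2139, 2058 and 4224 in these settings.

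**Figure D1:**
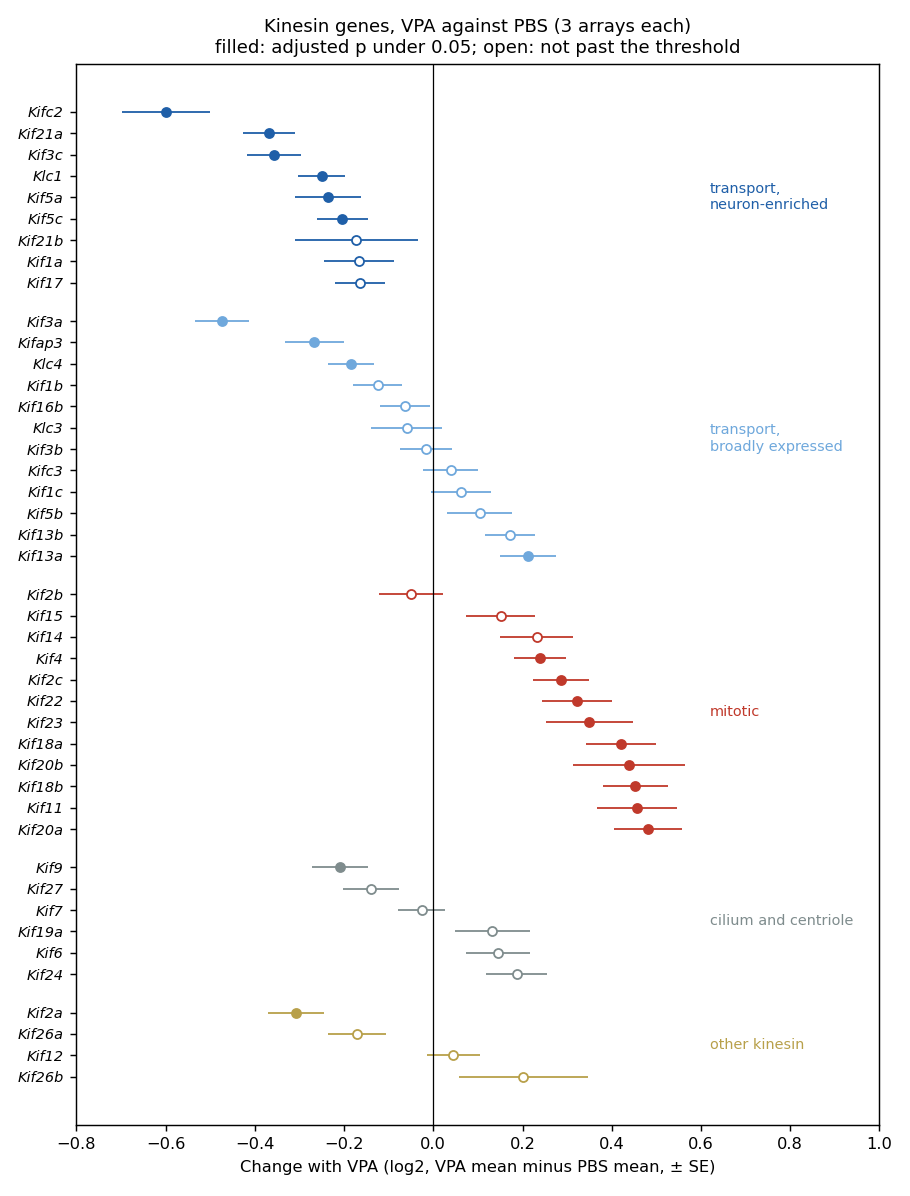
Change of each of the 43 kinesin genes with VPA (log2, VPA mean minus PBS mean, 3 arrays per group), with bars of 1 SE. Filled points passed an adjusted p of 0.05. All 9 neuron-enriched transport genes lie left of 0 and 11 of 12 mitotic genes lie right of it.

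The conventional kinesin, family 1, pairs heavy chains encoded by Kif5a, Kif5b and Kif5c with light chains. Kif5a, the heavy chain made mostly by neurons, gave 9.78, 9.88 and 9.76 with PBS and 9.71, 9.50 and 9.49 with VPA. The VPA arrays were all below the PBS arrays, with VPA replicate 1 nearest to them. Kif5a fell by 0.24 (SE 0.07, adjusted p = 0.041), but this call was among the least stable. It did not pass in 8 of 15 alternative analyses, including quantile normalization, the replicate number as a block and the omission of any array other than VPA replicate 1, and its adjusted p ran from 0.00281 to 0.154. Without VPA replicate 1 the change was -0.31 (adjusted p = 0.00281). Kif5c, a second neuron-enriched heavy chain, gave 11.15, 11.18 and 11.18 with PBS and 10.90, 11.03 and 10.97 with VPA. The groups did not overlap, and Kif5c fell by 0.20 (SE 0.06, adjusted p = 0.0266), with an adjusted p of 0.00882 to 0.0991 over the alternatives. That call was lost after quantile normalization and without any 1 of the PBS arrays or VPA replicate 3.

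Kif5b, the heavy chain found in most cells, went the other way in its mean. It gave 10.28, 10.27 and 10.29 with PBS and 10.23, 10.44 and 10.49 with VPA, so that VPA replicates 2 and 3 lay above the PBS arrays and VPA replicate 1 below them. The change was 0.10 (SE 0.07, adjusted p = 0.334), and without VPA replicate 1 it was 0.18 (adjusted p = 0.0188). Of the light chains, which link the heavy chains to cargo, Klc1 is enriched in the nervous system. It gave 10.62, 10.67 and 10.65 with PBS and 10.38, 10.42 and 10.39 with VPA. All VPA arrays of Klc1 were below all PBS arrays, and it fell by 0.25 (SE 0.05, adjusted p = 0.0073), which held in each of 15 alternatives. Klc4 gave 7.67, 7.68 and 7.64 with PBS and 7.47, 7.49 and 7.48 with VPA and fell by 0.18 (SE 0.05, adjusted p = 0.0274), with an adjusted p of 0.00786 to 0.107 over the alternatives; it was lost with the replicate block and without any array other than VPA replicate 1. Klc3 lay near background, at 6.24, 6.28 and 6.002 with PBS and 6.09, 6.09 and 6.16 with VPA, and its change was -0.06 (SE 0.08, adjusted p = 0.628). Background was gauged by the 95th percentile of 1027 olfactory receptor genes, 6.15, since most of these are silent outside the nose.

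Family 2 includes the heterotrimer of Kif3a, Kif3b and the adaptor Kifap3, which drives transport in axons and into cilia. Kif3a gave 10.04, 10.12 and 10.03 with PBS and 9.51, 9.60 and 9.65 with VPA. The groups did not overlap, and Kif3a fell by 0.47 (SE 0.06, adjusted p = 0.00049). This was the largest fall among the broadly used transport genes and passed in each of 15 alternatives. The adaptor Kifap3 gave 10.02, 10.04 and 9.996 with PBS and 9.63, 9.81 and 9.81 with VPA and fell by 0.27 (SE 0.07, adjusted p = 0.0149). Its groups did not overlap, and its adjusted p ran from 0.00828 to 0.0626, being lost without moderation of the variances, without PBS replicate 1 and without PBS replicate 2. Kif3b, the other motor of the complex, gave 8.95, 8.98 and 9.02 with PBS and 8.91, 8.96 and 9.05 with VPA. Its groups overlapped, with a change of -0.02 (SE 0.06, adjusted p = 0.873).

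Kif3c, which pairs with Kif3a and is enriched in neurons, gave 9.57, 9.64 and 9.68 with PBS and 9.30, 9.32 and 9.21 with VPA. Every VPA array was lower, and Kif3c fell by 0.36 (SE 0.06, adjusted p = 0.00229), in each of 15 alternatives too. Kif17, a homodimeric motor of this family that carries NMDA receptor subunits in dendrites, gave 6.76, 6.76 and 6.77 with PBS and 6.66, 6.54 and 6.59 with VPA. Its groups did not overlap, as was so for 44.0% of all genes in either direction, and its change of -0.16 (SE 0.06, adjusted p = 0.0574) did not pass. It passed without VPA replicate 1, at -0.20 (adjusted p = 0.0136), and when dim genes were left out.

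Among motors of family 3, Kif1a carries precursors of synaptic vesicles and dense-core vesicles along axons. It gave 10.86, 10.96 and 10.87 with PBS and 10.89, 10.70 and 10.61 with VPA. VPA replicate 1 lay within the PBS range while VPA replicates 2 and 3 lay below it. Its change of -0.17 (SE 0.08, adjusted p = 0.153) did not pass, and without VPA replicate 1 it was -0.24 (adjusted p = 0.01). Kif1b, whose isoforms carry mitochondria or vesicle precursors, gave 11.14, 11.09 and 11.11 with PBS and 11.02, 11.01 and 10.94 with VPA, with a change of -0.12 (SE 0.06, adjusted p = 0.126). It passed in 0 of 15 alternatives. Kif13a, which brings cargo from the Golgi network to the cell surface and endosomes, was the 1 transport kinesin that rose. It gave 8.22, 8.24 and 8.16 with PBS and 8.49, 8.44 and 8.33 with VPA and rose by 0.21 (SE 0.06, adjusted p = 0.0319), but the call was lost without moderation, without any 1 PBS array and without VPA replicate 2 (adjusted p from 0.0114 to 0.123). Its relative Kif13b changed by 0.17 (SE 0.06, adjusted p = 0.05), with no overlap of the groups, and passed in 5 of 15 alternatives. The endosome motor Kif16b and the Golgi-associated motor Kif1c changed by -0.06 (SE 0.06, adjusted p = 0.443) and 0.06 (SE 0.07, adjusted p = 0.533), with overlapping groups.

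The family 4 motors Kif21a and Kif21b restrain microtubule growth in neurons, and mutations of Kif21a in people cause an eye movement disorder of motor axons. Kif21a gave 10.35, 10.33 and 10.37 with PBS and 9.91, 10.02 and 10.02 with VPA. All VPA arrays were lower, and it fell by 0.37 (SE 0.06, adjusted p = 0.00148), in each of 15 alternatives. Kif21b gave 9.99, 10.10 and 10.01 with PBS and 10.22, 9.77 and 9.59 with VPA. VPA replicate 1 was above every PBS array and the other VPA arrays below all of them, so the mean change was -0.17 (SE 0.14, adjusted p = 0.395), and without VPA replicate 1 it was -0.35 (adjusted p = 0.00376). The family 14 motors move towards microtubule minus ends. Kifc2, a family 14 motor of the brain, had the largest change of any kinesin. It gave 8.64, 8.83 and 8.77 with PBS and 8.37, 8.09 and 7.99 with VPA and fell by 0.60 (SE 0.10, adjusted p = 0.002), a 1.51-fold difference, in each of 15 alternatives. VPA replicate 1 was the highest of the VPA arrays, and without it the change was -0.71 (adjusted p = 0.000129). Kifc3, which acts at cell junctions, changed by 0.04 (SE 0.06, adjusted p = 0.687), with overlapping groups.

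**Figure D2:**
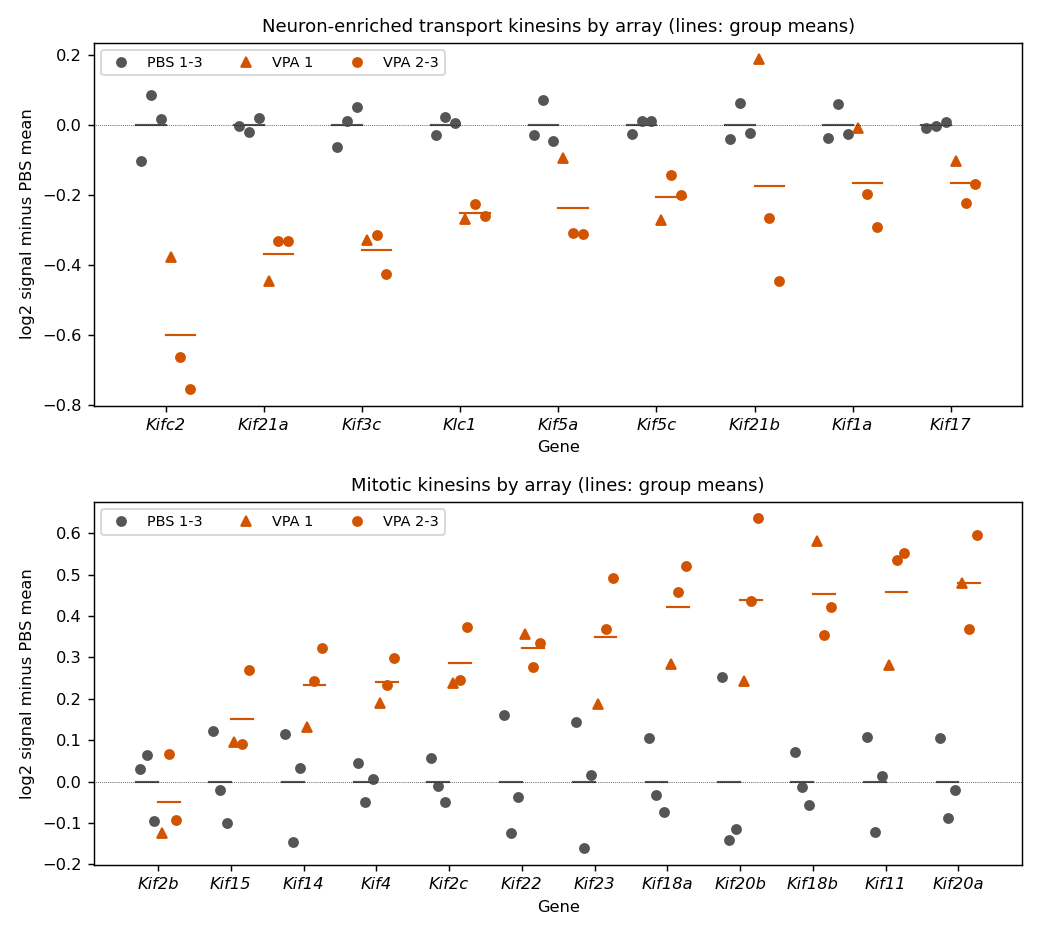
Log2 signal of each array minus the PBS mean of the gene, for the 9 neuron-enriched transport kinesins (top) and the 12 mitotic kinesins (bottom); grey points are the PBS arrays, orange the VPA arrays, triangles VPA replicate 1, and lines the group means. VPA replicate 1 lies above the PBS arrays for Kif21b and within their range for Kif1a, and all 3 VPA arrays of Kif11, Kif18b and Kif20a lie above the PBS arrays.

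Related motors were also compared within each array. Of 8 such pairs, 3 had groups that did not overlap, a share no higher than the 44.0% of single genes whose groups did not overlap in either direction. The pairs were chosen with the values in view, so these are descriptions with no test. The log2 value of Kif3a minus that of Kif3b went from 1.08 ± 0.06 with PBS to 0.62 ± 0.03 with VPA (SD, n = 3). For Kif3c minus Kif3b it went from 0.65 ± 0.03 with PBS to 0.31 ± 0.13 with VPA, and for Kif5c minus Kif5b from 0.89 ± 0.02 with PBS to 0.58 ± 0.09 with VPA (SD, n = 3 in each). In these 3 pairs each VPA array had a smaller difference than any PBS array. The difference Kif5a minus Kif5b went from -0.48 ± 0.07 with PBS to -0.82 ± 0.26 with VPA, with VPA replicate 1 at -0.52, inside the PBS range. Kif13a minus Kif13b went from 0.55 ± 0.04 with PBS to 0.59 ± 0.02 with VPA, with overlapping groups. Kif1a minus Kif1b and Kif5a minus Kif5c overlapped too, as did Kif21a minus Kif21b, whose VPA SD of 0.39 was the widest.

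**Figure D3:**
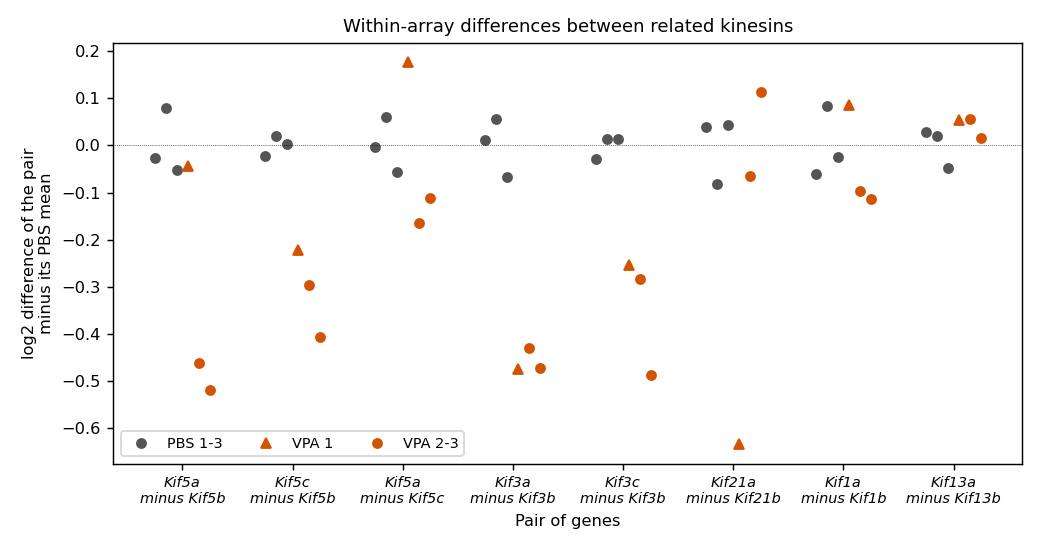
Difference in log2 signal between the genes of 8 related pairs in each array, minus the mean of the PBS arrays for that pair. Grey points are PBS, orange VPA, triangles VPA replicate 1. The VPA arrays lie below all PBS arrays for Kif5c minus Kif5b, Kif3a minus Kif3b and Kif3c minus Kif3b.

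Among the mitotic motors that build and shape the spindle, Kif11, Kif18a, Kif18b and Kif2c rose, while Kif15 and Kif2b did not pass. Kif11, the family 5 motor that pushes spindle poles apart, gave 8.65, 8.42 and 8.55 with PBS and 8.82, 9.08 and 9.09 with VPA. The groups did not overlap, VPA replicate 1 was the lowest VPA array, and Kif11 rose by 0.46 (SE 0.09, adjusted p = 0.00496), losing the call only without moderation of the variances (adjusted p = 0.064). Kif18b, which shortens astral microtubules, gave 8.62, 8.54 and 8.49 with PBS and 9.13, 8.90 and 8.97 with VPA and rose by 0.45 (SE 0.07, adjusted p = 0.00169). Kif18a, which dampens the movement of chromosomes at the metaphase plate, gave 7.14, 7.001 and 6.96 with PBS and 7.32, 7.49 and 7.56 with VPA and rose by 0.42 (SE 0.08, adjusted p = 0.00393). Both passed in each of 15 alternatives, with all VPA arrays above all PBS arrays. Kif2c, a microtubule depolymerase of centromeres, gave 7.87, 7.80 and 7.76 with PBS and 8.05, 8.06 and 8.19 with VPA and rose by 0.29 (SE 0.06, adjusted p = 0.00855), also in each of 15.

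The chromosome-bound motors Kif22 and Kif4 were higher as well. Kif22, which pushes chromosome arms away from the poles, gave 7.43, 7.15 and 7.24 with PBS and 7.63, 7.55 and 7.61 with VPA and rose by 0.32 (SE 0.08, adjusted p = 0.0141). Kif4, which acts on chromosomes and the central spindle, gave 7.03, 6.94 and 6.996 with PBS and 7.18, 7.22 and 7.29 with VPA and rose by 0.24 (SE 0.06, adjusted p = 0.0141). Neither had overlapping groups, but neither passed without PBS replicate 2 (adjusted p = 0.063 for Kif22 and 0.0723 for Kif4) or without PBS replicate 3 (adjusted p = 0.0581 and 0.052). Kif22 was also lost without moderation (adjusted p = 0.084). Kif15, which backs up Kif11 in holding the spindle bipolar, changed by 0.15 (SE 0.08, adjusted p = 0.185), with overlapping groups, and passed in 0 of 15 alternatives. Kif2b, another depolymerase, was below the background gauge in both groups and changed by -0.05 (SE 0.07, adjusted p = 0.656).

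Of the motors of cytokinesis Kif20a, Kif20b and Kif23 rose, while Kif14 did not pass. Kif20a, which brings the chromosomal passenger complex to the spindle midzone, gave 8.13, 7.94 and 8.01 with PBS and 8.51, 8.40 and 8.62 with VPA. The groups did not overlap and Kif20a rose by 0.48 (SE 0.08, adjusted p = 0.00171), the largest rise of any kinesin, in each of 15 alternatives. Kif23, the motor of centralspindlin, gave 8.15, 7.84 and 8.02 with PBS and 8.19, 8.37 and 8.50 with VPA and rose by 0.35 (SE 0.10, adjusted p = 0.0267). Kif20b, which serves the last step of abscission, gave 6.20, 5.81 and 5.84 with PBS and 6.20, 6.39 and 6.59 with VPA. VPA replicate 1 overlapped with PBS replicate 1, the PBS mean of 5.95 was below the background gauge, and the measured change was 0.44 (SE 0.12, adjusted p = 0.028). Kif23 and Kif20b lost the call without moderation and without PBS replicate 2, PBS replicate 3, VPA replicate 2 or VPA replicate 3 (adjusted p up to 0.143 and 0.164). Kif14, which recruits citron kinase to the midbody, had no overlap and a change of 0.23 (SE 0.08, adjusted p = 0.0628), short of the threshold; without VPA replicate 1 it was 0.28 (adjusted p = 0.0213). A second, dimmer Kif14 probe set, with a mean of 4.24, changed by -0.06.

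The promoters of the mitotic and transport kinesins were compared for letters known from cell cycle genes. Many genes of the late cell cycle carry a cell cycle homology region (CHR) close to their start, which the DREAM and MMB complexes bind, and often CCAAT boxes upstream of it. RefSeq windows of build GRCm38.p6, from 250 bases before to 50 after a gene's first listed start, were found for 35 of the 43 kinesins. Kif5a, Kif5b, Kif13b, Kif19a, Kif20a, Kif21b, Kifc2 and Kifc3 had no such window. The windows were searched on both strands for the CHR letters TTTGAA or TTTAAA, for CCAAT and for GGGCGG. The CHR letters and CCAAT overlapped in 0 kinesin windows. TTTGAA or TTTAAA was in 9 of 11 mitotic windows and in 0 of 15 transport windows, where 27.8% of all 27025 windows of that length held it and 24.0% of the 15614 that belong to genes on the array. Among the 8 mitotic windows of genes that rose, 7 held it. Over all kinesins 11 of 35 windows held it, so the letters were not confined to mitotic genes. Kif26b and Kif27, which are on other lists and did not pass, held it as well. In Kif26b a match began at -9 from the start and CCAAT at -73, and Kif27 had both kinds of letters too. In 8 of 11 mitotic and 0 of 15 transport windows a match began within 45 bases of the start, a distance chosen after the matches were seen, against 7.8% of all windows and 6.06% of those of genes on the array. CCAAT was in 7 of 11 mitotic and 6 of 15 transport windows, against 37.9% of all windows. GGGCGG was in 6 of 11 mitotic and 13 of 15 transport windows. It was in 35.9% of all windows and 49.9% of those of genes on the array. The sets of windows were not matched for base content. A match is only a match of letters, and no factor was measured at these sites. Whether the first listed start of each gene, including Kif14 and Kif2c, was the one used in these cells was not measured either.

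The 120 bases before the start are shown for 5 mitotic genes with a match there and, for contrast, for 3 transport genes that fell. Each reads 5′ to 3′ on the strand of the gene in build GRCm38.p6, and capitals mark the CHR letters or CCAAT on either strand (TTCAAA is the reverse of the first CHR form).
Kif11, chr19:37376262-37376381, plus strand: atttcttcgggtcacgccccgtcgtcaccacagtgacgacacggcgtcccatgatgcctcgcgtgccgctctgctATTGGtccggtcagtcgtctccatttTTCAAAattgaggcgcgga
Kif22, chr7:127042421-127042540, minus strand: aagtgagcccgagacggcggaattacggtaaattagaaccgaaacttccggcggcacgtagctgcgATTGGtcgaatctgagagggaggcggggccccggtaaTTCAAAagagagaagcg
Kif2c, chr4:117178773-117178892, minus strand: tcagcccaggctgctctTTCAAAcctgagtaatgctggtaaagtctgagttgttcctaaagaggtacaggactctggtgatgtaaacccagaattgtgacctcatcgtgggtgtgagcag
Kif14, chr1:136467728-136467847, plus strand: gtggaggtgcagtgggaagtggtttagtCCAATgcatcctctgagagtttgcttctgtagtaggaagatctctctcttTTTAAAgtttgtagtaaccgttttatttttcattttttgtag
Kif15, chr9:122950961-122951080, plus strand: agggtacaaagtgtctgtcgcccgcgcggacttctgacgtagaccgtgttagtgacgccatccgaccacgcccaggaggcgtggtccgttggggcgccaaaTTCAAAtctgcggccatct
Kif3a, chr11:53567249-53567368, plus strand: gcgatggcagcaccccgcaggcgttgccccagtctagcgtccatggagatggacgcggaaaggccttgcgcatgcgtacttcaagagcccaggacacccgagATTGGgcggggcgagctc
Kif21a, chr15:91049952-91050071, minus strand: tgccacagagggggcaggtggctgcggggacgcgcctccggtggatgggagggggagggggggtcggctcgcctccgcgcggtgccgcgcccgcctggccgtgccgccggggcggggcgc
Klc1, chr12:111758748-111758867, plus strand: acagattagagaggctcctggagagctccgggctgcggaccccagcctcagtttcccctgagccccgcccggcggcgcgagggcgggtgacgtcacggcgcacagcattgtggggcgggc
In Kif11, Kif22 and Kif15 the reverse CHR form began 19, 17 and 19 bases before the start. In Kif11 and Kif22 a reversed CCAAT box lay upstream of it, and Kif15, whose change did not pass, had no CCAAT in its window. Kif18a, which rose, had no TTTGAA or TTTAAA in its window.

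The kinesins of cilia and centrioles mostly did not pass. Kif9, a motor of motile cilia, gave 6.46, 6.63 and 6.57 with PBS and 6.32, 6.37 and 6.34 with VPA and fell by 0.21 (SE 0.06, adjusted p = 0.0329), which did not hold without moderation or without PBS replicate 2, PBS replicate 3, VPA replicate 2 or VPA replicate 3 (adjusted p up to 0.143). Kif24, which keeps centrioles from growing cilia, changed by 0.19 (SE 0.07, adjusted p = 0.075) with no overlap between the groups. Without VPA replicate 2 it passed, with an adjusted p of 0.0347. Kif7, a regulator of Hedgehog signalling at the cilium tip, changed by -0.03 (SE 0.05, adjusted p = 0.755), and Kif19a, which limits cilium length, by 0.13 (SE 0.08, adjusted p = 0.279). Kif6, a motor of ependymal cilia, changed by 0.14 (SE 0.07, adjusted p = 0.169), while a dimmer Kif6 probe set changed by -0.14. Kif27 was below the background gauge in both groups. Of 7 measured markers of motile cilia, 2 fell and 0 rose, where 15.7% of all genes fell and 13.6% rose.

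Of the remaining kinesins Kif2a fell. It encodes a microtubule depolymerase that prunes axon branches and also serves the spindle, and it is a close relative of the mitotic Kif2c, which rose. Kif2a gave 10.50, 10.47 and 10.49 with PBS and 10.07, 10.26 and 10.21 with VPA and fell by 0.31 (SE 0.06, adjusted p = 0.00642), in each of 15 alternatives and with no overlap between the groups. Kif26a, which lacks motor activity and dampens GDNF signalling, changed by -0.17 (SE 0.07, adjusted p = 0.0808), and without VPA replicate 1 by -0.22 (adjusted p = 0.0156). Kif26b, its relative in non-neural tissue such as the kidney, gave 8.42, 8.50 and 8.42 with PBS and 9.04, 8.49 and 8.40 with VPA. VPA replicate 1 stood alone above the other 5 arrays, and the change was 0.20 (SE 0.14, adjusted p = 0.339) with it and 0.004 (adjusted p = 0.96) without it. A second, dimmer Kif26b probe set, with a mean of 7.97, changed by 0.03 (SE 0.08). Kif12 was below the background gauge in both groups.

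Partners of the mitotic motors were higher too. Of 21 genes of spindle checkpoint, passenger complex and cytokinesis 11 rose (13.6% of all genes) and 0 fell, with a median of 0.28. Without VPA replicate 1, 17 rose (19.8% of all genes). Anln, the scaffold of the contractile ring, rose by 0.76 (SE 0.06), the passenger kinase Aurkb rose by 0.57 (SE 0.10) and the checkpoint kinase Bub1 rose by 0.54 (SE 0.09). The Kif23 partner Racgap1 rose by 0.28 (SE 0.07); Prc1, which binds Kif4 at the midzone, changed by 0.13 (SE 0.08, adjusted p = 0.254); and Cenpe, the family 7 kinesin that the naming rule leaves out, changed by 0.13 (SE 0.11, adjusted p = 0.403) and by 0.25 (adjusted p = 0.0295) without VPA replicate 1. These 3 were chosen after their values were seen. Of 8 cell cycle regulators 6 rose and 0 fell (median 0.36), with Cdk1 at 0.57 (SE 0.09), the proliferation marker Mki67 at 0.48 (SE 0.08) and Ccnb2 at 0.42 (SE 0.07).

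Cargo adaptors and the retrograde motor were less uniform. Of 17 measured adaptors 6 fell and 1 rose, with a median of -0.10, where 15.7% of all genes fell and 13.6% rose. Without VPA replicate 1, 9 fell (21.2% of all genes). Sybu, which links Kif5 motors to presynaptic cargo, changed by -0.49 (SE 0.07), and Kidins220, a neurotrophin receptor scaffold carried by kinesin, by -0.33 (SE 0.07), while Fez2 rose by 0.37 (SE 0.06). The adaptors' median excess in VPA replicate 1 over the mean of VPA replicates 2 and 3 was 0.15. Of 22 dynein and dynactin genes, which move cargo towards the cell body, 6 fell and 3 rose (median -0.11). Their rises were about as frequent as those over all genes (13.6%). Hook1, a dynein adaptor, changed by -0.88 (SE 0.09), the dynactin subunit Dctn2 by -0.30 (SE 0.08) and the intermediate chain Dync1i1, below the background gauge in both groups, by 0.27 (SE 0.08). The Kif3 motors drive the part of intraflagellar transport that goes into cilia. Of 10 genes of intraflagellar transport, which include dynein genes, 7 fell and 0 rose (median -0.27). Ift172 changed by -0.42 (SE 0.07), Dync2h1 by -0.39 (SE 0.07) and Ift20 by -0.37 (SE 0.09).

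**Figure D4:**
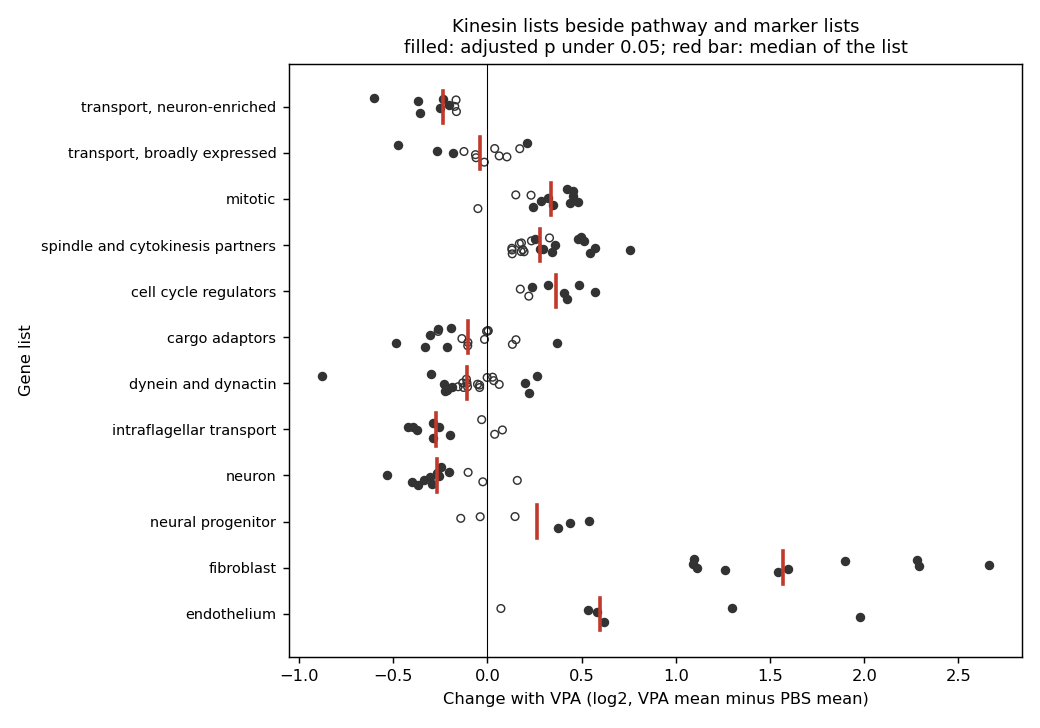
Change with VPA (log2, VPA mean minus PBS mean) of each measured gene in 3 kinesin lists, 5 pathway lists and 4 marker lists. Filled points passed an adjusted p of 0.05 and red bars are list medians. The medians were 0.34 for mitotic kinesins, 0.28 for spindle partners and 0.36 for cell cycle regulators. They were -0.24 for neuron-enriched kinesins, -0.27 for neuron markers and -0.27 for intraflagellar transport.

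Markers of cell types were read beside these groups. For comparison, 13.6% of all genes rose and 15.7% fell. Of 13 neuron markers 10 fell and 0 rose, with a median of -0.27, and their mean log2 level over the list was 10.998 to 11.08 with PBS and 10.77 to 10.80 with VPA. All 13 were above the background gauge in both groups, and the cultures are labelled as neurons. The pluripotency genes Pou5f1, Nanog and Zfp42 were below the gauge in both. Of 6 neural progenitor markers 3 rose and 0 fell (9.59 to 9.70 with PBS and 9.84 to 9.92 with VPA). Fibroblast markers rose in 10 of 10 cases, with a mean level of 7.99 to 8.24 with PBS and 9.75 to 9.86 with VPA and a median change of 1.57. Endothelial markers rose in 5 of 6 (6.07 to 6.20 with PBS and 6.94 to 7.08 with VPA; Tek was below the gauge in both groups), and muscle markers in 6 of 6 (6.62 to 6.69 with PBS and 7.95 to 8.43 with VPA). Of 8 glial markers 1 rose and 5 fell (7.67 to 7.80 with PBS and 7.43 to 7.54 with VPA; Aqp4 was below the gauge in both groups). The part of these shifts in the fall of neuron-enriched kinesins and in the rise of mitotic ones was not tested.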

How the data were processed

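The authors deposited a table of log2 signals by probe set, with a column for each of 6 Affymetrix whole transcript arrays (3 PBS, 3 VPA). Base 2 was inferred from their range, 2.50 to 13.89. The method of normalization is not given in the sources used here; the submitters' processing notes name Partek 6.5 and mm9 with no role. Of 35556 probe sets, 21789 had 1 symbol in GEO's platform annotation. Of these, 21698 were matched to a RefSeq gene through the Entrez ID and took its current symbol, which added 0 kinesins. The brightest probe set represented each of 19938 genes. The groups were compared with the linear model of limma 3.58.1 (R 4.3.3, eBayes, group as the sole term), which was tested on simulated data, with Benjamini-Hochberg adjustment over all genes at 0.05. The alternatives were 15 in number: 2 normalizations, 2 filters on dim genes, 3 variance models, a replicate block, the mean of probe sets and the omission of each array. The members, role lists and pathway lists were chosen with earlier results of these data known. Genes given with all 6 values were to be those past the threshold in the neuron-enriched list or changed by at least 0.5, with Kif5a, Kif5b, Kif5c and Kif11; the other members given so were chosen after their values were seen. Of each pathway list the 3 largest changes past the threshold are named. Same-numbered PBS and VPA arrays did not deviate together (correlations of -0.0199, -0.00849 and 0.0196, against -0.0286 to 0.026 for unlike numbers). With 3 arrays per group this cannot show that the cultures were unpaired. The labels give no pairing, and none was fitted in the main model. Permuting 3 against 3 arrays cannot give an exact p under 0.1 and was not used.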

Additional observations from a re-analysis of the deposited data

How the results depend on the processing

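Of the 21 kinesins called, 10 passed in each of 15 alternatives and 0 changed sign in any; 8 of the 22 not called passed in at least 1. With no moderation of the variances 1631 genes were higher, and 5 kinesins, all of them mitotic, were higher. Without any 1 array, genes higher ranged from 1778 to 3949 and genes lower from 2058 to 4224, kinesins higher from 5 to 12 and lower from 6 to 15, mitotic kinesins higher from 5 to 10 and transport kinesins lower from 5 to 12. The highest of these came without VPA replicate 1. After quantile normalization the balance over all genes turned to 3147 higher and 2671 lower, with 12 kinesins higher and 9 lower. The replicate block gave 10 kinesins higher and 9 lower, Kif5a and Klc4 being lost. The labels do not say whether same-numbered arrays were paired. Under the filters on dim genes Kif12, Kif27, Kif2b and Klc3 were left out. The number of arrays and, for genes near the gauge, the signal over background limit these values.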
